A study of Macaca fascicularis with 10 samples.

Results

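Receptor tyrosine kinases, ephrins and the insulin-like growth factor (IGF) system were represented by 47 of the 14132 genes that had a probe set with 1 symbol. Members were taken by symbol alone: the Eph receptors (EPHA, EPHB) and their ephrin ligands (EFNA, EFNB), the fibroblast growth factor (FGF) receptors, the ERBB receptors with EGFR, symbols that start with PDGF, the VEGF ligands, the IGF ligands, receptors and binding proteins (IGFBP), and KDR, FLT1, KIT, KITLG and MET. Each gene was read from 1 probe set. Among its probe sets above the array median on at least 2 arrays, the one of highest average log2 signal over all arrays was taken. A gene without such a probe set was read from the one of highest average among all its probe sets. Of the 47 members, 41 had a signal above the median of the array on at least 2 of the 10 arrays and were tested, among 11678 genes in all. EFNA5, EPHA5, EPHA6, EPHA8, FLT1 and IGFBP1 were not tested. EPHB1, EPHB6, EGFR and IGFBP5 would not have passed that filter without the arrays labelled fibroblast, so a lower stem cell signal of these 4 was favoured by the filter itself. FGFR1OP2 entered through the start of its symbol and is not a receptor. INSR, PDGFRA, PDGFRB and VEGFA were not analysed here.

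RNA of cynomolgus monkey (Macaca fascicularis) cells was hybridised to 10 Affymetrix Rhesus Macaque arrays, 1 array per sample. Parthenogenetic haploid embryonic stem cells (PG-haESC), derived from blastocysts without a sperm genome, gave 5 arrays, of line MPH1 under code M1 (arrays 1 and 2, passages 8 and 11), line MPH1 under code M2 (arrays 3 and 4, passages 7 and 9) and line MPH2 (array 5, passage 4). Diploid embryonic stem cells from blastocysts made by intracytoplasmic sperm injection (ICSI ESC) gave 3 arrays, of lines MES1 (passage 12), MES2 (passage 4) and MES3 (passage 4). Diploid cells labelled female somatic fibroblasts (MF, 1 line) gave 2 arrays, at passages 14 and 15. The PG-haESC were grown on feeder cells with Y27635 and Thiazovivin, and no genetic change or other agent is named for any group. The 3 ICSI ESC arrays and PG-haESC 5 are each of a line of their own, so spread between lines enters the p-values. PG-haESC 1 to 4 share line MPH1, and both MF arrays share 1 line, so the MF group holds no spread between lines. Whether passages of 1 line were kept as independent cultures is not stated, so the spread among those arrays may be technical. The fibroblast passages lay outside those of the stem cells, so passage and cell type cannot be told apart there.

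Receptor tyrosine kinases are membrane proteins that bind a ligand outside the cell, pair up and phosphorylate each other on tyrosine, which recruits adaptors that feed RAS-MAPK and PI3K-AKT signalling. Ephrins differ from most such ligands in being held on the membrane of a neighbouring cell, so that Eph receptors signal at cell contacts and guide sorting and boundaries between cells. The IGF system adds a layer of secreted binding proteins that carry IGF1 and IGF2 and limit their access to the IGF1 receptor, while IGF2R takes IGF2 up for degradation. In primate pluripotent cells in culture, FGF and IGF signalling are known as supports of self-renewal, and KIT and ERBB3 are among the receptors such cells carry.

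The deposited values were linear MAS5 signals, scaled by the authors to 1 trimmed mean on every array, and array medians lay between 76.6 and 132. The 8 measured markers of pluripotency summed to 58878 to 88903 signal units on PG-haESC arrays, 55519 to 69110 in ICSI ESC, and 2672 to 2693 on the arrays labelled fibroblast. The 12 measured fibroblast and feeder markers summed to 5462 to 41900, 6194 to 130731 and 190085 to 192022 in the same order of groups, highest among stem cell arrays on ICSI ESC 1. The arrays labelled fibroblast also carried the 10 measured epidermal markers at a sum of 326076 to 329391, against 3394 to 3926 in PG-haESC and 4116 to 5078 in ICSI ESC. In all stem cells 6 of the 10 (KRT2, LORICRIN, KRTDAP, FLG2, DSC1 and DSG1) lay at or under the array median. These values go against the label of a pure fibroblast culture, so the group is called by its label only. A signal of RNA from many cells does not tell fewer expressing cells from less RNA per cell.

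The first comparison asked whether haploid cells with a maternal genome alone express these receptors and ligands at other levels than ESCs of fertilised embryos. None of the 41 tested members passed limma's test at an adjusted p under 0.05, where 67 of all 11678 genes, 0.574%, did. At an unadjusted p under 0.05 there were 6 members, 14.6% of those tested, beside 8.79% of all genes. The median log2 change (PG-haESC minus ICSI ESC) was -0.01 over the members and -0.02 over all genes tested, and 20 of the 41 changes were above 0. The 95% interval lay wholly between -1 and 1, a 2-fold change either way, for 16 members. The other intervals were wider, so a change of that size was not excluded by the test there. Receptors, ligands and binding proteins alike held no call: 0 of 20 receptors, 0 of 14 ligands and 0 of 6 binding proteins passed.

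**Figure D1:**
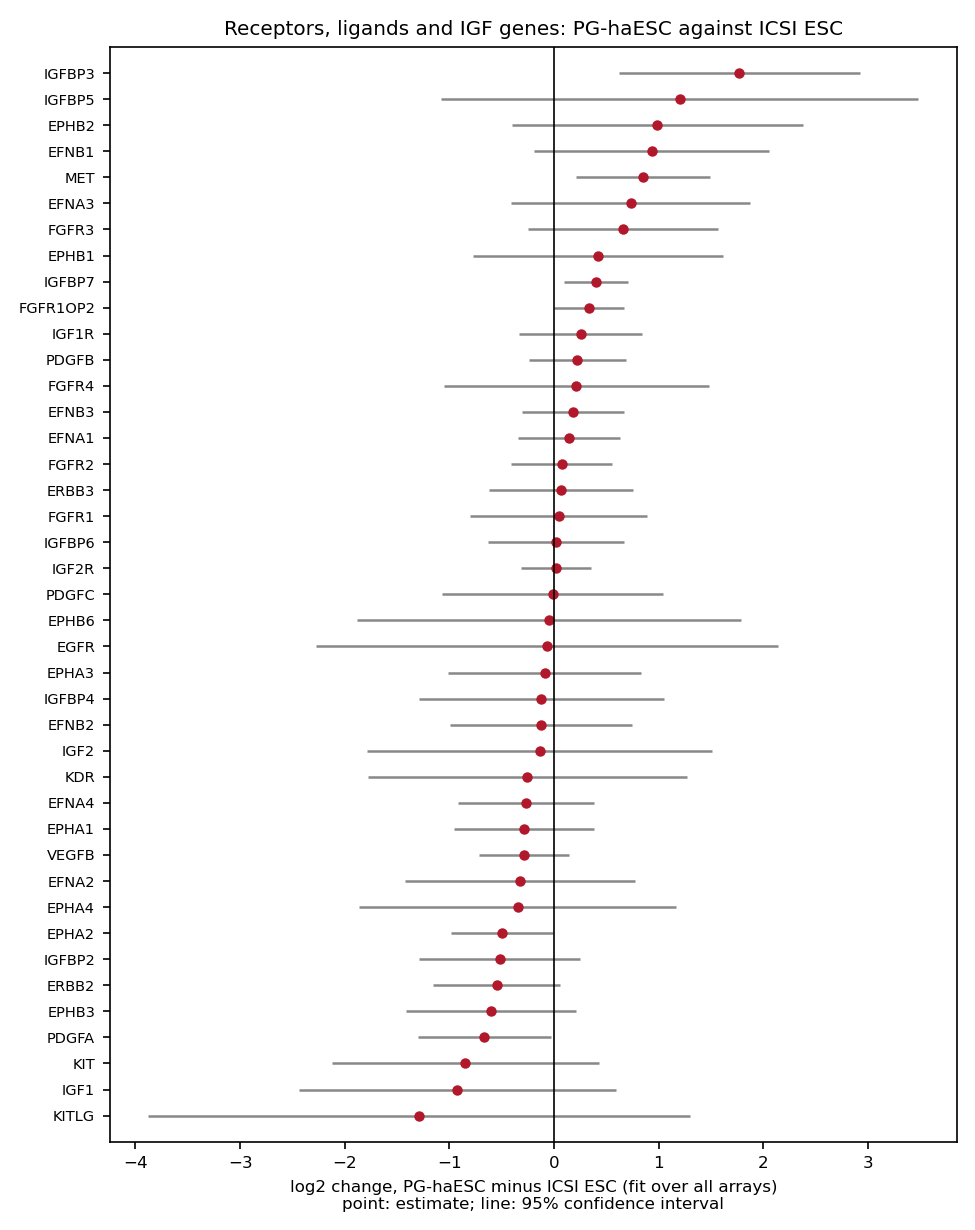
Log2 change of each of the 41 tested members, PG-haESC minus ICSI ESC, ordered by size, with the 95% confidence interval of the limma fit as a line. None passed the test, and the estimates run from KITLG (-1.29) at the bottom to IGFBP3 (1.77) at the top.

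IGFBP3, the main carrier of IGFs in blood, had the smallest p of the members. Its signal was 1197, 576, 1303, 1244 and 4524 on PG-haESC arrays 1 to 5, 715, 430 and 364 on ICSI ESC arrays 1 to 3, and 4887 and 5375 on the arrays labelled fibroblast. PG-haESC 5, the array of line MPH2, stood far above the rest of its group, and PG-haESC 2 lay below ICSI ESC 1, so the 2 groups overlapped. The log2 change was 1.77 ± 0.53 (SE, as after every ± below; 95% interval 0.62 to 2.92), a 3.41-fold higher estimate with an adjusted p of 0.27. Without PG-haESC 2 and ICSI ESC 1 together, the arrays of highest spike-in control signal, IGFBP3 passed at 2.28 (adjusted p = 0.049, and 0.049 to 0.73 over all alternatives). That alternative was chosen after the data had been seen. The geometric mean of the spike-in controls was 16387 on PG-haESC 2 and 13546 on ICSI ESC 1. On the other arrays it was 5773 to 8962, and its part in the members' signals was not tested.

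MET, the receptor of hepatocyte growth factor, gave 357, 248, 315, 237 and 354 on the PG-haESC arrays, 240, 130 and 157 in ICSI ESC, and 2180 and 2474 on the arrays labelled fibroblast. Only PG-haESC 4 fell under the highest ICSI ESC array. The change between the stem cell groups was 0.85 ± 0.29 (adjusted p = 0.42). IGFBP7, a secreted protein that binds IGFs and insulin weakly, gave 3252, 2916, 3540, 3039 and 3366 on PG-haESC arrays, 2354, 2564 and 2433 in ICSI ESC, and 4813 and 4850 on arrays labelled fibroblast. All PG-haESC arrays lay above all ICSI ESC arrays, at a change of 0.40 ± 0.14 (adjusted p = 0.42). VEGFB, a ligand of FLT1, was the only other member whose 2 stem cell groups did not overlap, with 465 to 626 in PG-haESC and 661 to 812 in ICSI ESC (change -0.29 ± 0.20, adjusted p = 0.90). These 2 members are 4.88% of those tested, and the ranges were apart for 8.27% of all genes.

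PDGFA, a ligand of the PDGF receptors, had an estimate below 0. Its signal was 907, 802, 1141, 1458 and 1588 on PG-haESC arrays, 1333, 2200 and 2331 in ICSI ESC, and 1695 and 1760 on arrays labelled fibroblast, with PG-haESC 4 and 5 above ICSI ESC 1. The change was -0.67 ± 0.29 (adjusted p = 0.63). EPHA2, an Eph receptor carried by epithelial and pluripotent cells, gave 625, 590, 758, 957 and 769 in PG-haESC, 941, 1021 and 1161 in ICSI ESC and 654 on both arrays labelled fibroblast, and only PG-haESC 4 reached the ICSI ESC range (change -0.50 ± 0.22, adjusted p = 0.66). FGFR1OP2, named after its fusion with FGFR1 in a leukaemia, gave 2315, 2243, 2587, 2682 and 2661 in PG-haESC, 1881, 2280 and 1851 in ICSI ESC and 4008 and 3686 on arrays labelled fibroblast (0.33 ± 0.15, adjusted p = 0.68). Each of these 6 smallest p-values belonged to a change under 2-fold except that of IGFBP3.

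EFNB1, an ephrin that is the only member placed on the X chromosome (assembly T2T-MFA8v1.1), gave 155, 390, 170, 220 and 256 on PG-haESC arrays, 174, 174 and 57.8 in ICSI ESC, and 141 and 217 on arrays labelled fibroblast. ICSI ESC 3 was lowest of the 10, and the stem cell groups overlapped. The change between PG-haESC and ICSI ESC was 0.93 ± 0.52 (95% interval -0.19 to 2.06, adjusted p = 0.81). IGF2, a growth factor that mammals transcribe mainly from the paternal copy, gave 36.2, 226, 50.1, 68.1 and 102 in PG-haESC, 102, 99.6 and 69.7 in ICSI ESC and 250 and 83.1 on arrays labelled fibroblast. The signal was above the array median on 2, 1 and 1 arrays of the 3 groups, so this probe set was near the dim end of every array and the interval was wide (change -0.14 ± 0.76, 95% interval -1.79 to 1.51). IGF2R, imprinted in mice from the maternal copy, gave 3074, 3136, 3014, 3439 and 3889 in PG-haESC and 3829, 3017 and 3214 in ICSI ESC. The groups overlapped at a change of 0.02 ± 0.15 (95% interval -0.32 to 0.35), so a change of 2-fold between them lay outside the interval.

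Within the stem cells, 29 members were above the array median on all 8 arrays, and 5 of those varied over 4-fold from the lowest to the highest array. EPHA4, an Eph receptor that takes ligands of both ephrin classes, gave 470, 520, 217, 430 and 96.9 on PG-haESC arrays and 239, 965 and 140 on ICSI ESC arrays. The groups overlapped, and the highest array, ICSI ESC 2, was 9.97-fold above the lowest, PG-haESC 5. KIT, the receptor of stem cell factor, gave 2581, 3478, 825, 907 and 1532 in PG-haESC, 2437, 5630 and 1697 in ICSI ESC and 933 and 857 on arrays labelled fibroblast. The arrays of MPH1 under code M1 were high and those under code M2 low, and ICSI ESC 2 was highest of the 10. The 7 endoderm markers summed to 5422, 14867, 3003, 1873 and 2337 on PG-haESC arrays and 7128, 19277 and 6547 in ICSI ESC, so ICSI ESC 2 and PG-haESC 2 were highest in both KIT and these markers. The 6 mesoderm markers were highest on the same 2 arrays, at 5980 on PG-haESC 2 and 4291 on ICSI ESC 2, against 324 to 2862 on the others. The part of either list in the KIT signal was not tested. FGFR3 rested on 1 array for its top, with 2074 on PG-haESC 5 and 465 to 1174 on the other 7 stem cell arrays. IGF2R (1.29-fold), FGFR1OP2 (1.45-fold), EFNB3 (1.49-fold) and IGFBP7 (1.5-fold) varied least.

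Some of this variation ran alongside the level of fibroblast and feeder markers. The mean log2 signal of those 12 markers was 8.82, 10.22, 7.72, 10.15 and 9.98 on PG-haESC arrays and 11.73, 7.56 and 8.94 on ICSI ESC arrays. PDGFC, a PDGF ligand, gave 390, 571, 391, 847 and 1206 in PG-haESC and 1459, 419 and 530 in ICSI ESC, highest where the marker level was highest. IGFBP4, a binding protein that inhibits IGF action, gave 272, 390, 238, 532 and 707 in PG-haESC and 1213, 263 and 320 in ICSI ESC, with the same array on top. The third IGFBP7 probe set by level gave 658, 2880, 265, 2018 and 2308 in PG-haESC and 7348, 314 and 1722 in ICSI ESC, while the probe set used for the gene was lowest on the array of highest marker level. The part of feeder cells in these members' signals was not tested.

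**Figure D2:**
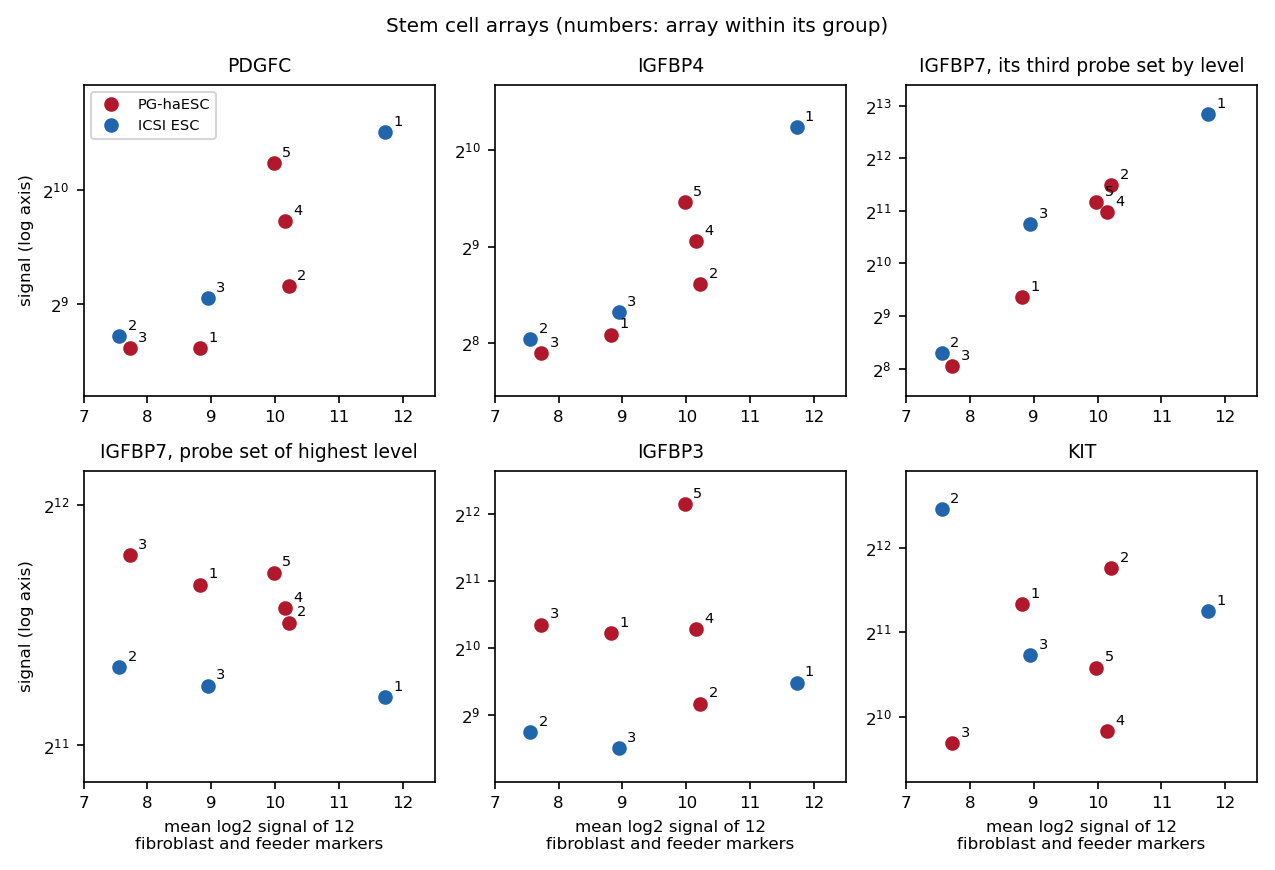
Signal (log axis) of 5 members on the 8 stem cell arrays against the mean log2 signal of 12 fibroblast and feeder markers on the same array. Numbers name the array within its group. PDGFC, IGFBP4 and the third IGFBP7 probe set are highest on ICSI ESC 1, the array of highest marker level (11.73), whereas IGFBP3 is highest on PG-haESC 5 and KIT on ICSI ESC 2.

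The other comparisons set each stem cell group against the arrays labelled fibroblast, the study's somatic control. Both use the same 2 control arrays, so they are not independent of each other. In PG-haESC 20 of the 41 tested members passed, 48.8%, beside 40.2% of all genes. Of these, 6 were higher (14.6%, beside 23% of all genes) and 14 lower (34.1%, beside 17.2%). In ICSI ESC 21 members passed, 51.2%, beside 39.5% of all genes, with 5 higher (12.2%, beside 22.5%) and 16 lower (39%, beside 17%). EPHB6, in both groups, and EPHB1, in ICSI ESC, are lower calls that entered only through the control arrays, and without them 13 and 14 members were lower. The median log2 change was -0.51 over the members in PG-haESC, beside 0.06 over all genes, and -0.25 in ICSI ESC, beside 0.08. The ranges of the groups were apart for 27 members in PG-haESC (65.9%, beside 64.1% of all genes) and for 28 in ICSI ESC (68.3%, beside 69.4%). At an unadjusted p under 0.05 there were 24 members in PG-haESC (58.5%, beside 49.3% of all genes) and 26 in ICSI ESC (63.4%, beside 49.3%).

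Of the receptors tested, 3 were higher, 7 lower and 10 did not pass in PG-haESC, and 2, 8 and 10 in ICSI ESC. Of the ligands tested, 2 were higher, 4 lower and 8 did not pass in either group. The sums of epidermal, endothelial, mural, leukocyte and trophoblast markers moved with these comparisons. Endothelial markers, 9 of 10 measured, summed to 654 to 1044 on PG-haESC, 565 to 1223 on ICSI ESC and 7483 to 7793 on arrays labelled fibroblast. Mural markers, 4 of 7 measured, summed to 1220 to 1900, 1104 to 1260 and 7424 to 7593, and leukocyte markers, 4 of 6 measured, to 261 to 609, 305 to 482 and 4745 to 4784, in the same order of groups. Trophoblast markers, 5 of 6 measured, summed to 1246 to 3566, 1037 to 2209 and 17029 to 17290. Their mean log2 signal differed less, at 7.13 to 8.80, 6.90 to 7.79 and 8.88 to 9.14. KRT7 and HAND1 of this list lay at or under the median on both arrays labelled fibroblast, so the higher sum came from its other markers. Melanocyte markers, all 7 measured, had sums that were not higher on the arrays labelled fibroblast, at 2533 to 3666, 3411 to 5265 and 1897 to 2117. Their mean log2 signal was higher there, at 5.24 to 6.42, 5.05 to 6.48 and 6.66 to 7.05. PMEL, MLANA, TYR, TYRP1 and DCT lay at or under the median on all PG-haESC arrays. So did PMEL, TYR and TYRP1 on all ICSI ESC arrays, and PMEL alone on both arrays labelled fibroblast. The part of any of these markers in the members' changes was not tested.

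**Figure D3:**
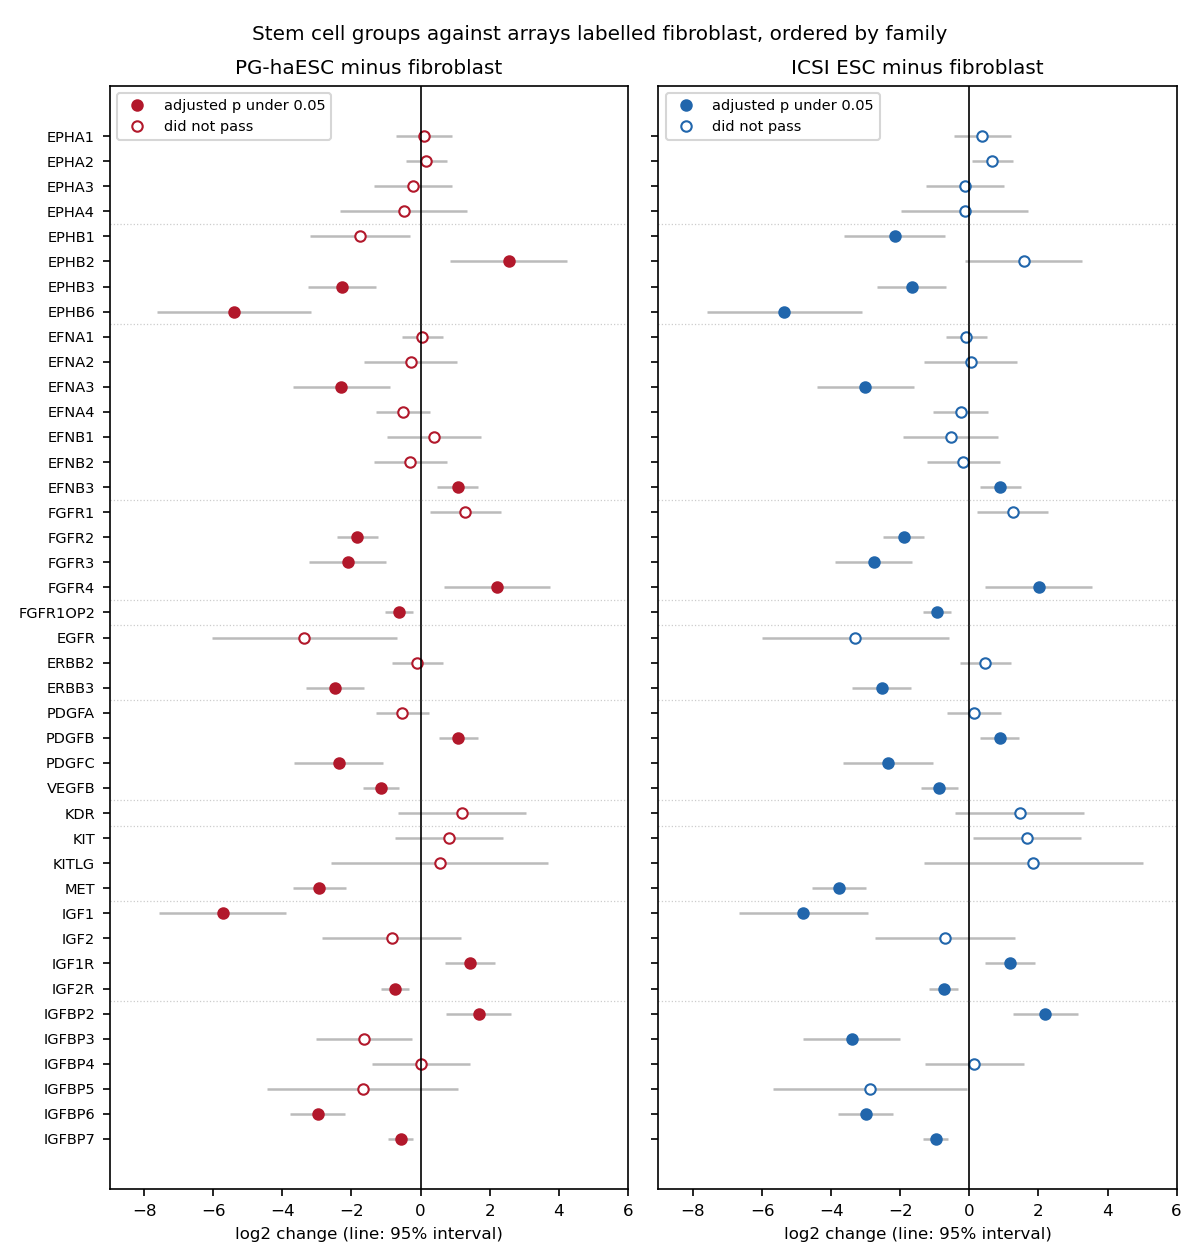
Log2 change of each of the 41 tested members against the arrays labelled fibroblast, PG-haESC on the left and ICSI ESC on the right, with 95% intervals as lines and families separated by dotted lines. Filled points passed at an adjusted p under 0.05, 20 in PG-haESC and 21 in ICSI ESC, and the lowest point of each panel is IGF1 (-5.73) or EPHB6 (-5.35).

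**Figure D4:**
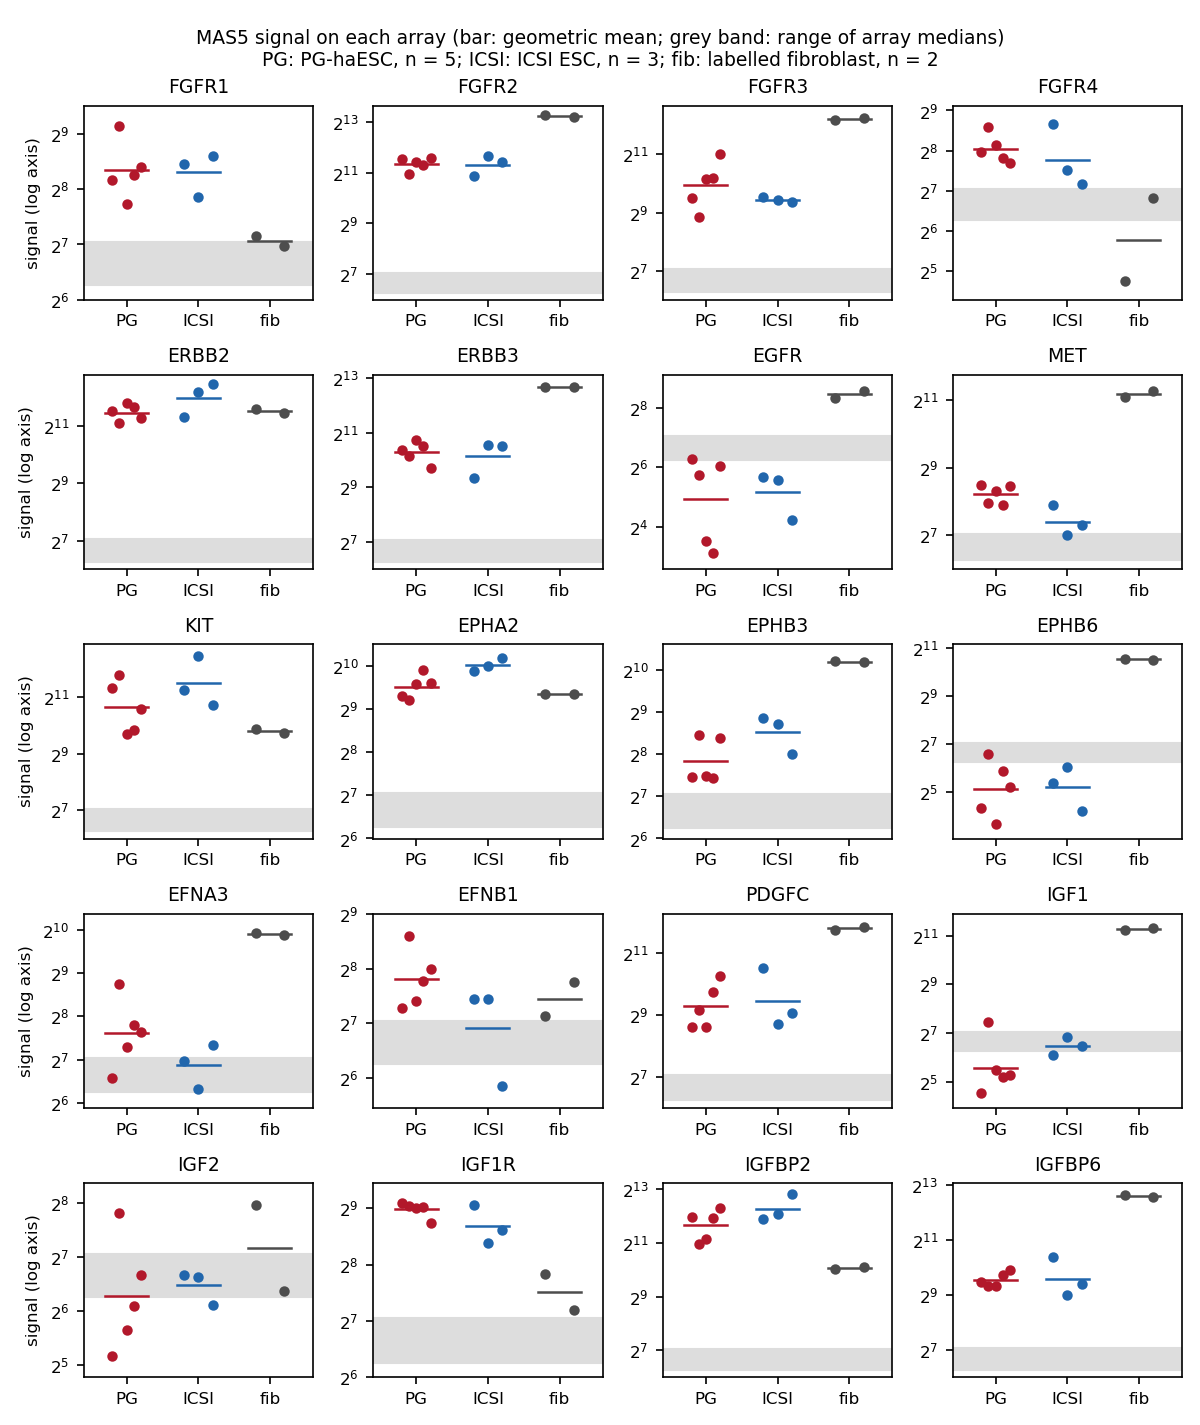
MAS5 signal (log axis) of 20 members on every array, by group, with the geometric mean of the group as a bar and the range of array medians (76.6 to 132) as a grey band. IGF1, EPHB6, MET and IGFBP6 separate both stem cell groups from the arrays labelled fibroblast, and no panel separates PG-haESC from ICSI ESC.

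Among the Eph receptors, the calls lay in the B class and ran in both directions. None of the 4 tested EPHA receptors passed in either group (EPHA1, EPHA2, EPHA3 and EPHA4), and the median change was -0.06 in PG-haESC and 0.12 in ICSI ESC. EPHA2 in ICSI ESC came closest, at 0.66 ± 0.28 (adjusted p = 0.085), and passed without ICSI ESC 1 (0.73, adjusted p = 0.048, and 0.019 to 0.19 over all alternatives). EPHB6, an Eph receptor without kinase activity, gave 20.3, 96.4, 12.6, 59 and 36.8 in PG-haESC, 40.8, 65.4 and 18.3 in ICSI ESC, and 1514 and 1473 on the arrays labelled fibroblast. Every stem cell array lay under its own median, so the fold is a lower bound, computed with each such signal raised to the median of its array. EPHB6 was at least 15.9-fold lower in PG-haESC and at least 15.7-fold lower in ICSI ESC, a description only, since the control arrays alone brought it past the filter.

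EPHB3, a receptor known for the sorting of intestinal epithelial cells, gave 176, 355, 179, 173 and 338 in PG-haESC, 468, 424 and 256 in ICSI ESC, and 1189 and 1166 on arrays labelled fibroblast, with no overlap. It fell 4.82-fold in PG-haESC (log2 change -2.27 ± 0.45, adjusted p = 0.0021) and 3.18-fold in ICSI ESC (-1.67 ± 0.46, adjusted p = 0.014). The ICSI ESC call was lost without fibroblast 1 (-1.65, adjusted p = 0.055) or fibroblast 2 (-1.68, adjusted p = 0.052), with 0.0045 to 0.055 over all alternatives. EPHB2, a receptor of ephrin-B ligands, was higher where it passed: 137, 179, 120, 133 and 148 in PG-haESC, 177, 27.5 and 77.6 in ICSI ESC, and 20.9 and 28.5 on arrays labelled fibroblast. Only ICSI ESC 2 reached the fibroblast range. EPHB2 was called at least 1.23-fold higher in PG-haESC (2.55 ± 0.78, adjusted p = 0.024), a call lost without PG-haESC 2 (2.49, adjusted p = 0.053) or fibroblast 1 (2.33, adjusted p = 0.083), with 0.0023 to 0.63 over all alternatives. Both control arrays were under their medians, and with dim signals raised to the median the change was 0.31 (adjusted p = 0.63). In ICSI ESC it did not pass (1.57, adjusted p = 0.15), and it did without ICSI ESC 2 (2.27, adjusted p = 0.024, and 0.024 to 0.91 over all alternatives).

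EPHB1, known from axon guidance at the optic chiasm in mice, gave 64.4, 71.8, 63.7, 69.8 and 263 in PG-haESC, 107, 54.6 and 79.9 in ICSI ESC, and 362 and 334 on arrays labelled fibroblast. PG-haESC 5 alone was above its array median among the stem cells. EPHB1 was at least 3.67-fold lower in ICSI ESC (-2.17 ± 0.68, adjusted p = 0.027). As with EPHB6 this is a description only, since EPHB1 passed the filter only with the control arrays. EPHB1 lost that call without ICSI ESC 2 (-1.91, adjusted p = 0.069), ICSI ESC 3 (-2.19, adjusted p = 0.052), fibroblast 1 (-2.11, adjusted p = 0.099) or fibroblast 2 (-2.23, adjusted p = 0.082), with 0.0070 to 0.10 over all alternatives. In PG-haESC the change was -1.75 ± 0.67 (adjusted p = 0.064). There it passed without PG-haESC 5 (-2.37, adjusted p = 0.0060) or ICSI ESC 1 (-1.86, adjusted p = 0.030), with 0.0060 to 0.32 over all alternatives. The 3 untested Eph receptors, EPHA5, EPHA6 and EPHA8, lay between 2.32 and 105 and under the array median on all 10 arrays.

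Of the 7 ephrins tested, 5 did not pass in either group, 1 was higher and 1 was lower in both. EFNA3, a ligand tethered by a lipid anchor, gave 95.9, 432, 156, 223 and 198 in PG-haESC, 126, 80.5 and 162 in ICSI ESC, and 972 and 944 on arrays labelled fibroblast. No stem cell array reached the fibroblast values. EFNA3 fell 4.89-fold in PG-haESC (-2.29 ± 0.64, adjusted p = 0.015) and 8.11-fold in ICSI ESC (-3.02 ± 0.65, adjusted p = 0.0033). The PG-haESC call was lost without fibroblast 1 (-2.27, adjusted p = 0.055) or fibroblast 2 (-2.31, adjusted p = 0.051), with 0.0020 to 0.055 over all alternatives.

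EFNB3, a transmembrane ephrin known as a midline repellent of axons in mice, gave 482, 505, 473, 605 and 636 in PG-haESC, 537, 426 and 499 in ICSI ESC, and 252 and 273 on arrays labelled fibroblast. It was 2.10-fold higher in PG-haESC (1.07 ± 0.27, adjusted p = 0.0091) and 1.85-fold higher in ICSI ESC (0.89 ± 0.27, adjusted p = 0.025). The ICSI ESC call was lost without ICSI ESC 3 (0.87, adjusted p = 0.058), fibroblast 1 (0.83, adjusted p = 0.095) or fibroblast 2 (0.95, adjusted p = 0.061), with 0.0022 to 0.29 over all alternatives. The second EFNB3 probe set did not pass, at 0.10 in both comparisons, and with the mean of the gene's probe sets neither call held (0.59, adjusted p = 0.20 in PG-haESC, and 0.49, adjusted p = 0.29 in ICSI ESC). EFNA1, a ligand of EPHA2, did not pass on the probe set used for it, with 1957 to 2693 in PG-haESC, 1460 to 2639 in ICSI ESC and 2163 and 2226 on arrays labelled fibroblast. Its second probe set gave 388, 436, 741, 988 and 2406 in PG-haESC, 430, 578 and 586 in ICSI ESC, and 3512 and 3987 on arrays labelled fibroblast. That probe set fell in both groups (-2.02, adjusted p = 0.026, and -2.83, adjusted p = 0.0043), so the call of EFNA1 rests on the choice of probe set. EFNA2, EFNA4, EFNB1 and EFNB2 did not pass, with changes between -0.51 and 0.39 in PG-haESC and between -0.54 and 0.04 in ICSI ESC. EFNA5, not tested, gave 30.4 to 121 and was above the array median on PG-haESC 4 alone.

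The 4 FGF receptors divided. FGFR2 and FGFR3 were lower in stem cells, FGFR4 was higher, and FGFR1 did not pass. FGFR2, whose splice forms serve epithelial or mesenchymal cells, gave 1959 to 3090 in PG-haESC, 1881 to 3213 in ICSI ESC, and 9802 and 9257 on arrays labelled fibroblast. It fell 3.56-fold in PG-haESC (-1.83 ± 0.27, adjusted p = 0.00026) and 3.74-fold in ICSI ESC (-1.90 ± 0.27, adjusted p = 0.00022), and 3 of its 6 tested probe sets were called lower in each group. FGFR3, a receptor known for restraining bone growth, gave 719, 465, 1137, 1174 and 2074 in PG-haESC, 734, 694 and 658 in ICSI ESC, and 4642 and 4865 on arrays labelled fibroblast. No array overlapped, at 4.33-fold lower in PG-haESC (-2.11 ± 0.51, adjusted p = 0.0066) and 6.84-fold lower in ICSI ESC (-2.77 ± 0.51, adjusted p = 0.0012). The second FGFR3 probe set gave 0.20 and 0.36 and did not pass, and the mean of the gene's probe sets gave -0.96 and -1.21. With arrays centred on their medians the PG-haESC call was lost (-1.82, adjusted p = 0.052, and 0.00072 to 0.052 over all alternatives).

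FGFR4, the FGF receptor best known for bile acid control in liver, gave 248, 385, 283, 224 and 206 in PG-haESC, 406, 182 and 143 in ICSI ESC, and 26.6 and 112 on arrays labelled fibroblast. The stem cell arrays were all higher, but the control arrays differed from each other more than any stem cell pair did within PG-haESC. FGFR4 was 4.64-fold higher in PG-haESC (2.21 ± 0.71, adjusted p = 0.030) and 4.01-fold higher in ICSI ESC (2.00 ± 0.71, adjusted p = 0.048). The change in PG-haESC was 1.18 without fibroblast 1 (adjusted p = 0.19), 3.26 without fibroblast 2 (adjusted p = 0.0029), 2.09 without PG-haESC 2 (adjusted p = 0.082) and 2.19 without PG-haESC 3 (adjusted p = 0.055), with 0.0029 to 0.19 over all alternatives. In ICSI ESC it was 0.96 without fibroblast 1 (adjusted p = 0.29), 3.04 without fibroblast 2 (adjusted p = 0.0048), 1.56 without ICSI ESC 1 (adjusted p = 0.081) and 2.14 without ICSI ESC 2 (adjusted p = 0.063). The ICSI ESC call was also lost on leaving out PG-haESC 1, 2, 3 or 4 (2.00, adjusted p = 0.069, 0.085, 0.073 and 0.060), with 0.0048 to 0.29 over all alternatives. With dim signals raised to the median neither FGFR4 call held (1.12, adjusted p = 0.090 in PG-haESC, and 0.91, adjusted p = 0.18 in ICSI ESC). FGFR1, the FGF receptor of most mesenchymal and pluripotent cells, gave 287, 567, 214, 306 and 340 in PG-haESC, 352, 233 and 390 in ICSI ESC, and 142 and 126 on arrays labelled fibroblast, with no overlap. Its changes were 1.29 ± 0.47 (adjusted p = 0.053) and 1.25 ± 0.48 (adjusted p = 0.063). FGFR1 passed in PG-haESC without PG-haESC 3 (1.42, adjusted p = 0.036), ICSI ESC 1 (1.29, adjusted p = 0.027) or ICSI ESC 2 (1.29, adjusted p = 0.048), with 0.0080 to 0.15 over all alternatives, and in ICSI ESC without PG-haESC 2 (1.25, adjusted p = 0.038) or ICSI ESC 2 (1.47, adjusted p = 0.046), with 0.011 to 0.17.

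Of the 3 ERBB receptors tested, ERBB3 was lower in both stem cell groups. ERBB3, a neuregulin receptor with little kinase activity of its own, gave 1311, 1125, 1702, 1470 and 836 in PG-haESC, 651, 1509 and 1461 in ICSI ESC, and 6592 and 6563 on arrays labelled fibroblast. It was 5.57-fold lower in PG-haESC (-2.48 ± 0.39, adjusted p = 0.00037) and 5.83-fold lower in ICSI ESC (-2.54 ± 0.39, adjusted p = 0.00033), and both tested probe sets were called lower in each group. ERBB2, the ligandless partner of the other ERBB receptors, gave 2960, 2194, 3576, 3308 and 2491 in PG-haESC, 2558, 4749 and 5666 in ICSI ESC, and 3114 and 2862 on arrays labelled fibroblast. All 3 groups overlapped, at -0.09 in PG-haESC (adjusted p = 0.87) and 0.46 in ICSI ESC (adjusted p = 0.34). ERBB2 passed in ICSI ESC without ICSI ESC 1 (0.80, adjusted p = 0.023, and 0.011 to 0.69 over all alternatives).

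EGFR, the epidermal growth factor receptor, gave 77, 54.1, 11.4, 8.57 and 65.7 in PG-haESC, 51.6, 48.1 and 18.5 in ICSI ESC, and 325 and 384 on arrays labelled fibroblast. All stem cell arrays were under their medians, so EGFR passed the filter through the control arrays alone, which favoured a lower stem cell signal. The bound was at least 3.75-fold lower in PG-haESC and at least 3.72-fold lower in ICSI ESC. The changes of the signals as given did not pass, at -3.37 in PG-haESC (adjusted p = 0.053) and -3.30 in ICSI ESC (adjusted p = 0.060). With dim signals raised to the median both passed (-1.95, adjusted p = 0.00078, and -1.89, adjusted p = 0.0011), a description only because of the filter. The PG-haESC change, -3.37, became -3.67 without PG-haESC 1 (adjusted p = 0.040), -3.81 without PG-haESC 5 (adjusted p = 0.038) and -3.45 without ICSI ESC 1 (adjusted p = 0.025), with 0.00078 to 0.15 over all alternatives. In ICSI ESC it passed without PG-haESC 4 (-3.30, adjusted p = 0.033) or ICSI ESC 1 (-3.56, adjusted p = 0.042), with 0.0011 to 0.17 over all alternatives.

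MET, the hepatocyte growth factor receptor, had the smallest adjusted p of the members in ICSI ESC. It was 7.60-fold lower in PG-haESC (-2.93 ± 0.36, adjusted p = 6.2e-05) and 13.7-fold lower in ICSI ESC (-3.78 ± 0.36, adjusted p = 9.9e-06), and no stem cell array came near the values of 2180 and 2474. The mean of its probe sets gave -2.51 in ICSI ESC. KIT did not pass, at 0.83 ± 0.71 in PG-haESC (adjusted p = 0.42) and 1.68 ± 0.72 in ICSI ESC (adjusted p = 0.095), where all ICSI ESC arrays were above the control arrays. KITLG, the membrane-bound or shed ligand of KIT, gave 8.04, 114, 86.1, 46 and 25.8 in PG-haESC, 112, 55.4 and 118 in ICSI ESC, and 9.05 and 69.9 on arrays labelled fibroblast. It was above the array median on 1 PG-haESC and 1 ICSI ESC array alone, and its intervals spanned several log2 units. KDR, the main VEGF receptor of endothelium, gave 96.3, 94.6, 87.8, 118 and 32.6 in PG-haESC, 98.1, 52.8 and 110 in ICSI ESC, and 54.2 and 16.7 on arrays labelled fibroblast, with no call. FLT1, the other VEGF receptor listed, was under the array median on all 10 arrays, between 2.86 and 53.

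Of the PDGF and VEGF ligands, PDGFB was higher, PDGFC and VEGFB were lower and PDGFA did not pass, in both stem cell groups. PDGFB, a ligand that binds both PDGF receptors, gave 7483, 5505, 6832, 6089 and 5721 in PG-haESC, 3712, 5972 and 6749 in ICSI ESC, and 2827 and 2972 on arrays labelled fibroblast. It was 2.14-fold higher in PG-haESC (1.10 ± 0.26, adjusted p = 0.0061) and 1.83-fold higher in ICSI ESC (0.87 ± 0.26, adjusted p = 0.022). The ICSI ESC call was lost without ICSI ESC 2 (0.79, adjusted p = 0.060), ICSI ESC 3 (0.70, adjusted p = 0.072), fibroblast 1 (0.84, adjusted p = 0.085) or fibroblast 2 (0.91, adjusted p = 0.063), with 0.00063 to 0.11 over all alternatives. The PG-haESC call was lost as well when its probe sets were averaged (0.46, adjusted p = 0.36, and 0.00024 to 0.36 over all alternatives).

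PDGFC, secreted in a latent form that proteases open, was at 3396 and 3629 on the arrays labelled fibroblast, above every stem cell array. It fell 5.16-fold in PG-haESC (-2.37 ± 0.59, adjusted p = 0.0082) and 5.11-fold in ICSI ESC (-2.35 ± 0.60, adjusted p = 0.0089). The dimmest tested PDGFC probe set went the other way, with 142, 123, 195, 112 and 148 in PG-haESC, 102, 167 and 143 in ICSI ESC, and 38 and 49.5 on arrays labelled fibroblast, and was called higher in both (1.71, adjusted p = 0.024, and 1.63, adjusted p = 0.032). When its probe sets were averaged PDGFC did not pass (-0.91, adjusted p = 0.14 in PG-haESC, and -0.88, adjusted p = 0.16 in ICSI ESC). VEGFB, at 1350 and 1262 on arrays labelled fibroblast, was 2.22-fold lower in PG-haESC (-1.15 ± 0.24, adjusted p = 0.0029) and 1.82-fold lower in ICSI ESC (-0.87 ± 0.24, adjusted p = 0.016). The ICSI ESC call of VEGFB was lost without fibroblast 1 (-0.82, adjusted p = 0.076, and 0.0053 to 0.27 over all alternatives). With arrays centred on their medians VEGFB passed in neither group (-0.83, adjusted p = 0.11 in PG-haESC, and -0.58, adjusted p = 0.27 in ICSI ESC), and the PG-haESC p was 0.00033 to 0.11 over all alternatives. PDGFA had changes of -0.53 (adjusted p = 0.29) and 0.14 (adjusted p = 0.82).

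In the IGF system the ligand IGF1 and the receptor IGF1R moved in opposite directions. IGF1, a growth factor made by liver and by mesenchymal cells, gave 23.1, 175, 44.8, 37 and 38.6 in PG-haESC, 67.9, 116 and 87.7 in ICSI ESC, and 2423 and 2510 on arrays labelled fibroblast. Of the stem cell arrays, PG-haESC 2 and ICSI ESC 2 alone were above their medians. IGF1 was 52.9-fold lower in PG-haESC (-5.73 ± 0.85, adjusted p = 0.00026) and 27.9-fold lower in ICSI ESC (-4.80 ± 0.86, adjusted p = 0.00098), and 2 of its 3 tested probe sets were called lower in each group. These folds are set against mostly dim signals: with those raised to the array median the change was -4.69 in PG-haESC and -4.50 in ICSI ESC, and averaging its probe sets gave -4.01 and -3.62. IGF1R, the receptor through which both IGFs signal, gave 545, 524, 516, 522 and 427 in PG-haESC, 535, 336 and 390 in ICSI ESC, and 228 and 146 on arrays labelled fibroblast. It was 2.70-fold higher in PG-haESC (1.43 ± 0.33, adjusted p = 0.0050) and 2.26-fold higher in ICSI ESC (1.18 ± 0.33, adjusted p = 0.016). The ICSI ESC call was lost without fibroblast 2 (0.85, adjusted p = 0.11, and 0.0021 to 0.11 over all alternatives). The second IGF1R probe set had changes of 0.22 and 0.45 and did not pass, and neither did the mean of the gene's probe sets (0.83, adjusted p = 0.064 in PG-haESC, and 0.81, adjusted p = 0.072 in ICSI ESC).

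IGF2R, at 5423 and 5794 on arrays labelled fibroblast, was 1.66-fold lower in PG-haESC (-0.73 ± 0.19, adjusted p = 0.0093) and 1.68-fold lower in ICSI ESC (-0.75 ± 0.19, adjusted p = 0.0086). Both calls were lost without fibroblast 2 (-0.69, adjusted p = 0.053, and -0.70, adjusted p = 0.052). They were also lost with arrays centred on their medians (-0.41, adjusted p = 0.40, and -0.47, adjusted p = 0.36), with 0.0013 to 0.40 and 0.0013 to 0.36 over all alternatives. The second IGF2R probe set did not pass (-0.51, adjusted p = 0.21 in PG-haESC, and -0.70, adjusted p = 0.089 in ICSI ESC). IGF2 did not pass in either group (-0.83, adjusted p = 0.54, and -0.69, adjusted p = 0.62).

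Of the 6 binding proteins tested, 1 was higher and 2 were lower in PG-haESC, and 1 was higher and 3 were lower in ICSI ESC. IGFBP2, an IGF carrier abundant in fetal tissue and in pluripotent cells, was higher: 3997, 1979, 2238, 3858 and 4961 in PG-haESC, 3768, 4345 and 7194 in ICSI ESC, and 1041 and 1094 on arrays labelled fibroblast. Every stem cell array exceeded both control arrays, at 3.20-fold in PG-haESC (1.68 ± 0.43, adjusted p = 0.0093) and 4.59-fold in ICSI ESC (2.20 ± 0.43, adjusted p = 0.0019). IGFBP6, which prefers IGF2, was lower: 711, 644, 638, 851 and 960 in PG-haESC, 1320, 510 and 674 in ICSI ESC, and 6264 and 6031 on arrays labelled fibroblast. It fell 7.90-fold in PG-haESC (-2.98 ± 0.36, adjusted p = 5.9e-05) and 8.0-fold in ICSI ESC (-3.00 ± 0.37, adjusted p = 6.3e-05). ICSI ESC 1, the stem cell array of highest fibroblast and feeder marker level, was also its highest stem cell array.

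IGFBP3 was called lower in ICSI ESC, at 10.6-fold (-3.41 ± 0.65, adjusted p = 0.0015), and was not called in PG-haESC (-1.64 ± 0.64, adjusted p = 0.069). It passed in PG-haESC without PG-haESC 5 (-2.32, adjusted p = 0.0018) or ICSI ESC 1 (-1.77, adjusted p = 0.031), with 0.0018 to 0.31 over all alternatives, and the difference between the stem cell groups themselves did not pass, as given above. IGFBP7 was 1.49-fold lower in PG-haESC (-0.58 ± 0.17, adjusted p = 0.020) and 1.97-fold lower in ICSI ESC (-0.98 ± 0.17, adjusted p = 0.00084). Its PG-haESC call was lost without fibroblast 1 (-0.58, adjusted p = 0.071) or fibroblast 2 (-0.57, adjusted p = 0.075), with 0.00076 to 0.66 over all alternatives. With arrays centred on their medians IGFBP7 passed in neither group (-0.25, adjusted p = 0.66 in PG-haESC, and -0.70, adjusted p = 0.20 in ICSI ESC). Of the 6 tested IGFBP7 probe sets, 1 was called lower in PG-haESC and 3 in ICSI ESC. IGFBP4 did not pass, at 433 and 418 on arrays labelled fibroblast (0.01 and 0.14), and neither did IGFBP5, which was above its array median on 1 PG-haESC and 1 fibroblast array. IGFBP1, a liver and decidual binding protein, was not tested, with 14.2 to 175 and above the median on PG-haESC 2 alone. FGFR1OP2 was 1.53-fold lower in PG-haESC (-0.61 ± 0.19, adjusted p = 0.024) and 1.93-fold lower in ICSI ESC (-0.95 ± 0.19, adjusted p = 0.0021). The FGFR1OP2 call in PG-haESC was lost without fibroblast 1 (-0.55, adjusted p = 0.11) or fibroblast 2 (-0.67, adjusted p = 0.056), with 0.0019 to 0.63 over all alternatives. With centred arrays FGFR1OP2 passed in neither group (-0.29, adjusted p = 0.63 in PG-haESC, and -0.66, adjusted p = 0.24 in ICSI ESC). Of the 7 tested FGFR1OP2 probe sets, 3 were called lower in PG-haESC and 2 in ICSI ESC. With the mean of the gene's probe sets neither call held (-0.38, adjusted p = 0.30 in PG-haESC, and -0.44, adjusted p = 0.23 in ICSI ESC).

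The partners of these receptors were followed through 7 lists of 138 genes, of which 101 were tested. Between PG-haESC and ICSI ESC, 2 of the 101 were called, both higher, beside 0.574% of all genes called. At an unadjusted p under 0.05 there were 10, beside 8.79% of all genes. AKT1, the kinase through which PI3K signals, gave 1315, 828, 1505, 952 and 1212 in PG-haESC, 352, 425 and 393 in ICSI ESC, and 112 and 98.1 on arrays labelled fibroblast, without overlap between PG-haESC and ICSI ESC. The change was 1.56 ± 0.27 (adjusted p = 0.031), but the second AKT1 probe set gave 346 to 538 in PG-haESC and 362 to 383 in ICSI ESC, a change of 0.18 (adjusted p = 0.98). The call was lost without PG-haESC 1 (1.51, adjusted p = 0.085), PG-haESC 3 (1.47, adjusted p = 0.075), ICSI ESC 2 (1.62, adjusted p = 0.084) or ICSI ESC 3 (1.57, adjusted p = 0.12), with 0.0054 to 0.43 over all alternatives.

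GPC3, a glypican placed on the X chromosome that binds growth factors at the cell surface, gave 1792, 1475, 1762, 1404 and 1434 in PG-haESC, 789, 596 and 480 in ICSI ESC, and 292 and 241 on arrays labelled fibroblast. PG-haESC and ICSI ESC did not overlap. The change was 1.34 ± 0.22 (adjusted p = 0.025), and the second, dim GPC3 probe set gave -1.60 (adjusted p = 0.90). The call was lost without PG-haESC 1 (1.30, adjusted p = 0.070), PG-haESC 2 (1.36, adjusted p = 0.053), PG-haESC 3 (1.31, adjusted p = 0.076), ICSI ESC 2 (1.33, adjusted p = 0.084) or ICSI ESC 3 (1.17, adjusted p = 0.12), with 0.0053 to 0.99 over all alternatives. Neither AKT1 nor GPC3 passed with 1 averaged value per line (1.58, adjusted p = 0.23, and 1.31, adjusted p = 0.40).

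**Figure D5:**
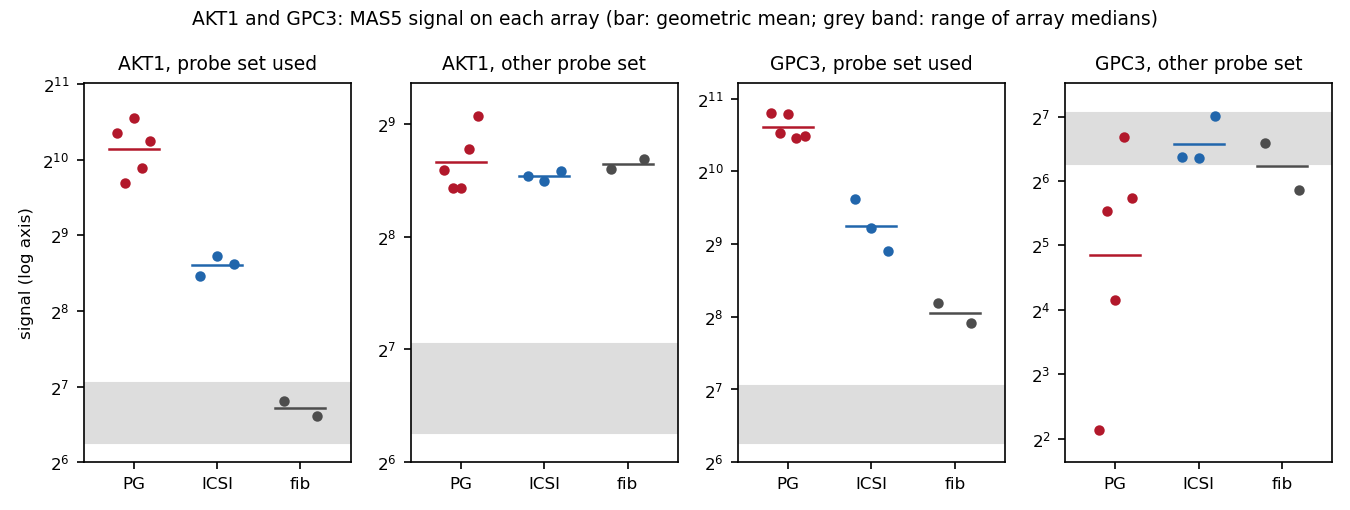
MAS5 signal (log axis) of both probe sets of AKT1 and of GPC3 on every array, by group, with the geometric mean as a bar and the range of array medians as a grey band. The probe set used separates PG-haESC from ICSI ESC for both genes, and the other probe set does not.

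Against the arrays labelled fibroblast, 16 of the 101 partner genes were higher and 24 lower in PG-haESC, and 17 were higher and 21 lower in ICSI ESC. Of all genes, 23% were higher and 17.2% lower in PG-haESC, and 22.5% and 17% in ICSI ESC, and these shares are the background of the counts by list as well. In either direction together, 40.2% of all genes were called in PG-haESC and 39.5% in ICSI ESC, so the partners are not set apart by their number of calls. Of 15 other receptor tyrosine kinases, 3 were higher and 2 lower in PG-haESC, and 2 and 2 in ICSI ESC. ROR1, a WNT5A receptor of embryonic tissue, had geometric means of 871, 822 and 156 in PG-haESC, ICSI ESC and fibroblast (log2 change 2.30 ± 0.46 and 2.40 ± 0.46, adjusted p = 0.0020 and 0.0016). MST1R, a receptor of the MET family, had 261, 289 and 1453 (-2.54 ± 0.34 and -2.33 ± 0.35, adjusted p = 0.00013 and 0.00027). CSF1R, the macrophage growth factor receptor, was at least 8.26-fold lower in PG-haESC and at least 8.18-fold lower in ICSI ESC, where leukocyte markers were lower too. CSF1R lay under the median on all 8 stem cell arrays and entered the test through the control arrays alone, so this is a description.

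Of 15 tested ligands and co-receptors, 2 were higher and 3 lower in PG-haESC, and 4 and 5 in ICSI ESC. SDC1, a syndecan of epithelia that presents growth factors, had geometric means of 1578, 1576 and 15645 (-3.29 ± 0.19 and -3.31 ± 0.19, adjusted p = 2.1e-07 and 2.5e-07). BTC, an EGFR and ERBB ligand, was at least 43.4-fold lower in PG-haESC and at least 43.0-fold lower in ICSI ESC, a description for the same reason as with CSF1R. GPC4, an X-linked glypican, rose in both groups, with geometric means of 6206, 5090 and 776 (2.97 ± 0.27 and 2.71 ± 0.27, adjusted p = 5.7e-06 and 1.3e-05).

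Of 22 adaptors and RAS-MAPK genes, 4 were higher and 6 lower in PG-haESC, and 5 and 3 in ICSI ESC. MAP2K1, the kinase MEK1, had geometric means of 5566, 4904 and 2297 (1.21 ± 0.21 and 1.09 ± 0.21, adjusted p = 0.00077 and 0.0017). Of 17 IRS and PI3K-AKT genes, 3 were higher and 7 lower in PG-haESC, and 3 and 6 in ICSI ESC. PIK3R1, the regulatory subunit of PI3K, had 479, 561 and 3333 (-2.71 ± 0.43 and -2.57 ± 0.43, adjusted p = 0.00039 and 0.00063). GRB14, an adaptor that inhibits the insulin receptor, went the other way at 819, 704 and 160 (2.38 ± 0.30 and 2.13 ± 0.30, adjusted p = 8e-05 and 2e-04).

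Of 12 negative regulators and shedding enzymes, 3 were higher and 0 lower in PG-haESC, and 2 and 0 in ICSI ESC. ADAM10, a protease that releases ephrins and EGFR ligands from membranes, had geometric means of 10779, 10518 and 3908 (1.45 ± 0.20 and 1.43 ± 0.20, adjusted p = 0.00015 and 0.00019). Of 15 Eph effectors, 1 was higher and 4 lower in PG-haESC, and 1 and 3 in ICSI ESC. VAV3, an exchange factor that acts downstream of Eph receptors, had 924, 848 and 4289 (-2.24 ± 0.35 and -2.34 ± 0.35, adjusted p = 0.00036 and 0.00029). Of 5 genes of IGF availability, 0 were higher and 2 lower in both groups, although the median change of the 5 was 1.10 in PG-haESC and 0.43 in ICSI ESC. HTRA1, a protease that cleaves IGFBP5, had 988, 952 and 16550 (-3.93 ± 0.60 and -4.12 ± 0.61, adjusted p = 0.00032 and 0.00025), with its highest ICSI ESC signal on array 1.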

How the data were processed

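The deposited table held signal intensity on a linear scale, 1 column per array, which the authors made with MAS5, per the submitters' processing notes (release not stated there). Per the labels' protocols, RNA came from a TRIZOL extraction and was biotin-labelled (GeneChip 3' IVT Express). The mean of each array without its top and bottom 2% of probe sets was equal on all 10 arrays, and no other normalization was added. Without detection calls, signals at or under the array median were taken as dim. Precision is limited by how few lines there are, and not by the count of arrays alone.

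Of 52865 probe sets, 99 controls were left out and 34178 above the array median on at least 2 arrays were tested. The probe annotation gave 24956 probe sets 1 symbol, 361 several and 27449 none. Log2 signals of all 10 arrays were fitted with limma 3.58.1 in R 4.3.3, by group, with lines as random blocks (correlation 0.286) and a variance trend. Tests were two-sided, with Benjamini-Hochberg adjustment across every tested probe set. As lines rather than arrays carry the weight, a fold can differ from the ratio of the geometric means. All 47 members were placed by symbol on T2T-MFA8v1.1. No arrays were identical. The method was tested on simulated data. Python 3.11.15 and matplotlib 3.10.9 drew the figures.

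The members, gene lists and tests were chosen with earlier results of these data known. Values on every array were given for the 6 members of smallest p between the stem cell groups, for up to 8 higher and 8 lower called members of largest fold in each fibroblast comparison, and for IGF2, IGF2R, EFNB1, KIT, KITLG, FGFR1, IGF1R, ERBB2, ERBB3, EGFR, KDR and MET, and partner genes were named from the up to 4 of smallest p per list and comparison. Among those partner genes, the ones named, and EPHA4, IGFBP4, EPHB1 and further probe sets, were chosen after their values had been seen. Alternatives were other handling of lines, an offset of 32, quantile normalization, centring, other filters, raising dim signals to the median, the mean of a gene's probe sets, other variance settings, only the groups compared, a 2-fold threshold and leaving out each array. Leaving out the 2 arrays of highest spike-in signal was added after the data had been seen. No sequence of a member was available here, so none is shown.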

Additional observations from a re-analysis of the deposited data

Results flagged for a closer look

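In the 5 PG-haESC arrays, 4 of the 41 tested members had 1 array whose gap to the nearest other array was over 0.71 of the whole range (Dixon's criterion). For 5 arrays of 1 kind, chance flags about 1 in 20 such groups, but array 5 here is of another line than arrays 1 to 4. The share of all genes flagged was not computed, so the count of members is not read as high or low. EPHB1 was 263 on PG-haESC 5 and 63.7 to 71.8 on the other 4 arrays. KDR was 32.6 on PG-haESC 5 and 87.8 to 118 on the others, and IGF1R was 427 on PG-haESC 5 and 516 to 545 on the others. PG-haESC 5 is the single array of line MPH2 and the one of lowest passage, so line and passage cannot be told apart there. VEGFB was 465 on PG-haESC 3 and 595 to 626 on the others.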

How the results depend on the processing

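Between PG-haESC and ICSI ESC the count of members called was 0 under every alternative, and 0 to 0 on leaving out single arrays, except without the 2 arrays of highest spike-in signal, where it was 1 (IGFBP3). Against fibroblast the count was 20 in PG-haESC (15 to 24 on leaving out single arrays) and 21 in ICSI ESC (15 to 23). With 1 averaged value per line it was 11 in PG-haESC (1 higher, 10 lower), all 11 among the 20, and 14 in ICSI ESC (1 higher, 13 lower), in a fit of fewer values where fibroblast, 1 line, is a single value assumed to vary like the other groups. That ended the calls of EPHB2, EFNB3, FGFR4, FGFR1OP2, PDGFB, PDGFC, IGF1R, IGF2R and IGFBP7 in PG-haESC, and of EPHB1, EFNB3, FGFR4, PDGFB, VEGFB, IGF1R and IGF2R in ICSI ESC. Without a variance trend FGFR4, FGFR1OP2 and IGFBP7 were lost in PG-haESC, and FGFR4 and PDGFB in ICSI ESC. Centring arrays on their medians moved the median change of all genes by 0.30 in PG-haESC and 0.28 in ICSI ESC (quantile normalization by 0.18 and 0.17). It gave 7 higher and 10 lower members in PG-haESC and 6 higher and 11 lower in ICSI ESC, so the split between higher and lower calls depends on the scaling. The shares of all genes called under these alternatives are not given here, so the counts are not set against a background. Over 25 alternatives, 8 calls held throughout in PG-haESC (EPHB3, EPHB6, ERBB3, FGFR2, IGF1, IGFBP2, IGFBP6 and MET) and 10 in ICSI ESC (EFNA3, EPHB6, ERBB3, FGFR2, FGFR3, IGF1, IGFBP2, IGFBP3, IGFBP6 and MET), EPHB6 having entered through the control arrays alone. On leaving out single arrays, 14 of 20 and 13 of 21 calls held. With the mean of all probe sets EFNA1 was called lower in PG-haESC than in fibroblast (-0.98) and the GPC3 estimate between PG-haESC and ICSI ESC turned to -0.13 (adjusted p = 0.99), which did not pass. PTPRJ, called higher in PG-haESC than in fibroblast (2.48, adjusted p = 0.046), had an estimate of -0.28 with dim signals raised to the array median (adjusted p = 0.62), which did not pass. PTPRJ was 13.3 and 12 on the arrays labelled fibroblast and lay under the array median there and on PG-haESC 2, 3, 4 and 5. With dim signals raised, its estimate therefore compared mostly array medians. With a fibroblast array left out, the lone array is assumed to vary like the other groups. The ICSI ESC fit of only the groups compared used the correlation of all arrays. No paired analysis was possible because replicate numbers only name arrays. Dim members (IGF2, KITLG, KDR, EGFR, IGFBP5) have wide intervals, and the table gives no detection calls.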
